A study of Mus musculus with 6 samples.

Results

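The genes described here encode the factors that carry the ribosome through elongation, termination and recycling. The list holds 10 symbols: Eef1a1, Eef1b2, Eef1d and Eef1g of the eEF1 complex, Eef2 and its kinase Eef2k, Eif5a, the release factor genes Etf1 and Gspt1, and the recycling factor gene Abce1. Members were chosen by symbol. Of these, 9 of 10 were measured, among 19937 genes in all, and Eef1g is listed under no probe set of the annotation used here. The RNA came from pooled polysome fractions of sucrose gradients of the leukaemia clone #483 of C57BL6 mice, which the labels call T-ALL (acute lymphoblastic leukaemia of T cells). The treated group (3 samples) received 100 µM 4EGI-1 for 2 h. This small molecule keeps eIF4E, which binds the mRNA cap, from joining eIF4G, the scaffold of the initiation complex. The control group (3 samples) is titled untreated, while the protocols name DMSO as the alternative to 4EGI-1, so whether it received solvent is not settled. All samples share 1 clone, and each was hybridised to 1 array.

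In elongation, eEF1A delivers aminoacyl-tRNA to the ribosome, its exchange complex (eEF1B2, eEF1D and eEF1G) recharges it with GTP, and eEF2 moves the ribosome along the mRNA. The kinase eEF2K phosphorylates and inhibits eEF2. eIF5A helps the ribosome form difficult peptide bonds, eRF1 (Etf1) and its GTPase partner eRF3 (Gspt1) release the finished protein at stop codons, and ABCE1 splits the ribosome for reuse. Many mRNAs of elongation factors, Eef2 and Eef1a1 among the best known, begin with a terminal oligopyrimidine (TOP) tract, a C followed by a run of pyrimidines that ties their translation to mTOR signalling.

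The deposited values are log2 signals, and the difference given for each gene is 4EGI-1 minus control on this scale, with the moderated standard error (SE) of limma and a 95% confidence interval. A gene passed at a Benjamini-Hochberg adjusted p under 0.05 over all 19937 genes. By this rule 22.9% of all genes passed, 11.5% higher and 11.5% lower. Of the 9 measured factor genes, 1 rose (Eef2), 2 fell (Etf1 and Abce1) and 6 did not pass. Their median log2 difference was -0.07, against -0.03 over all genes. Treated and control values were fully separate in 5 of the 9, 1 higher and 4 lower, against 37.9% of all genes (17.0% higher and 20.8% lower). A polysome array reads the amount of an mRNA in these fractions, and without total RNA a change in ribosome loading and a change in mRNA amount cannot be told apart.

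T-cell markers, 11 of 12 measured, had a mean log2 signal of 10.10 to 10.12 per control array and 9.82 to 9.88 per treated array. Of the 11, 5 fell and 0 rose, against 11.5% of all genes lower and 11.5% higher. Single T-cell markers had means of 6.68 to 12.37. Cd5 and Cd7 lay within the range of the stromal and endothelial markers, which reached 7.25. The lists of B-cell, myeloid, erythroid, and stromal and endothelial markers had mean signals of 5.12 to 6.80 per array, and Cd68, by 0.31, was the only marker in them that passed; their part in the results was not tested. Arrays of one group correlated at 0.996 to 0.997 across genes and arrays of different groups at 0.988 to 0.990. The labels give no batch, and no array stood apart from its group.

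The starts of 4 of the genes are shown because the TOP tract is the sequence feature for which elongation factor mRNAs are known. The listed starts of Eef2k, Eif5a and Gspt1 are not shown. The 4 were picked with their values known. Eef2, Eef1b2 and Eef1a1 were picked because Eef2 and the eEF1 genes gave unequal values in these arrays, a reason that does not cover Abce1. Whether the tract bears on the values of any of the 4 was not tested. The sequences are the sense strand, 30 bases each, from the RefSeq gene starts of build GRCm38.p6, and capitals mark a C followed by at least 5 bases that are C or T.
Eef2: gttgacgtcagcggtCTCTTCCgccgcagc
Abce1: aacgtcatcaCTCCCTCCagggcgccgact
Eef1b2: gccggaagtagccgaggccttgcgtccgag
Eef1a1: ttcccgagggtgggggagaacggtatataa
The Eef2 window lies at chr10:81176631-81176660 on the plus strand, and its run of 7 pyrimidines begins at base 16 counted from the annotated start. The Abce1 window lies at chr8:79711711-79711740 on the minus strand, with a run of 8 from base 11. The windows of Eef1b2 (chr1:63176831-63176860, plus strand) and Eef1a1 (chr9:78481695-78481724, minus strand) hold no such run, nor does the rest of the 50 bases after either start. These are annotated starts, which need not be the starts used in these cells. For Eef1a1, named above among the best known TOP mRNAs, a window without a run therefore does not show that its mRNA lacks the tract. Of 32851 RefSeq starts, 33.3% hold such a run within 50 bases on the sense strand, so a match describes the letters only. The table of starts holds 14 starts of 7 of the genes, and 4 of the 14 (28.6%) hold a run, 1 each of Eef2, Abce1, Eef2k and Eif5a, a share near that of all starts.

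Eef2, which encodes the translocase of elongation, was the member with the largest difference and the only one that rose. Its log2 signal was 11.86, 11.81 and 11.81 in the control samples and 12.37, 12.30 and 12.41 with 4EGI-1. Every treated sample lay above every control sample, and the gap between the groups was wider than the range within either. The mean rose from 11.83 ± 0.03 to 12.36 ± 0.06 (SD, n = 3 each), a difference of 0.53 ± 0.06 (SE; 95% confidence interval 0.39 to 0.68), which is 1.45-fold (limma adjusted p = 0.000546). Eef2 passed in each of 15 alternatives, with differences of 0.51 to 0.59.

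**Figure D1:**
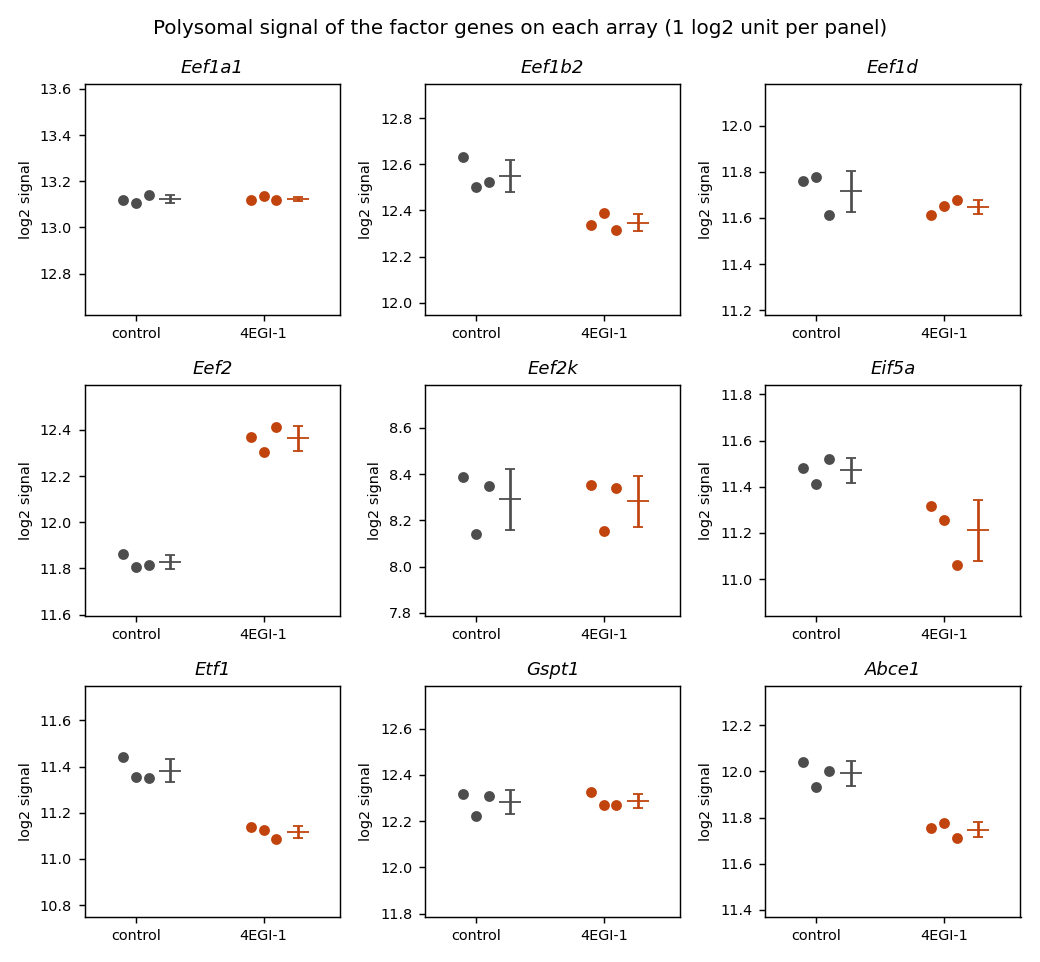
Log2 signal of each of the 9 measured factor genes on each array, control in grey and 4EGI-1 in orange; points are samples, and the bars beside them give the mean and SD (n = 3). Each panel spans 1 log2 unit. Eef2 stands at 12.30 to 12.41 with 4EGI-1 against 11.81 to 11.86 in controls, while the groups of Eef1a1 and Gspt1 overlap.

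Among the eEF1 genes no member passed. Eef1a1, which encodes the carrier of aminoacyl-tRNA, had log2 signals of 13.12, 13.11 and 13.14 in controls and 13.12, 13.13 and 13.12 with 4EGI-1. The groups overlap, and the difference was 0.00 ± 0.06 (SE), with a 95% confidence interval of -0.12 to 0.13 (limma adjusted p = 0.976). Eef1a1 has many processed copies in the genome, so its probe set may also read related sequences.

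Eef1b2, which encodes the catalytic exchange subunit, had log2 signals of 12.63, 12.50 and 12.52 in controls and 12.34, 12.39 and 12.32 with 4EGI-1. All treated samples lay below all controls, but the difference of -0.20 ± 0.06 (SE) missed the threshold (limma adjusted p = 0.0537). It passed in 3 of 15 alternatives, when genes below the table's median (adjusted p = 0.0145) or its 25th percentile (adjusted p = 0.0340) were left out and with a trended robust prior (adjusted p = 0.000844). Quantile normalization brought it to -0.13 (adjusted p = 0.167).

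Eef1d, which encodes a further exchange subunit, had log2 signals of 11.76, 11.78 and 11.61 in controls and 11.61, 11.65 and 11.68 with 4EGI-1. These overlap, with a difference of -0.07 ± 0.07 (SE; 95% confidence interval -0.22 to 0.09; limma adjusted p = 0.548). The difference was -0.12 without control replicate 3 and -0.04 without control replicate 2, and it passed in 0 of 15 alternatives.

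Whether Eef2 and the eEF1 genes changed unequally was compared within arrays, as the log2 signal of Eef2 minus the mean of Eef1a1, Eef1b2 and Eef1d. This value was -0.64, -0.66 and -0.61 in the control samples and 0.01, -0.09 and 0.04 with 4EGI-1. The groups did not overlap, and the change was 0.62 on the log2 scale. An exact two-sided permutation test over the 6 arrays gave p = 0.1, the smallest that 3 against 3 samples allow, so the test cannot reach the threshold. The pair of Eef2 and the eEF1 genes was chosen with the values of Eef2 known.

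Eef2k encodes the calcium and calmodulin dependent kinase that inhibits eEF2. By its brighter probe set the log2 signal was 8.39, 8.14 and 8.35 in controls and 8.35, 8.15 and 8.34 with 4EGI-1. Samples of each group spread over the same range, and the difference was -0.01 ± 0.09 (SE; 95% confidence interval -0.21 to 0.20; limma adjusted p = 0.962). The dimmer of its 2 probe sets gave another picture, at 7.00, 7.01 and 7.11 in controls and 7.38, 7.20 and 7.30 with 4EGI-1. There the groups were separate, with a difference of 0.25 ± 0.07 (SE), which missed the threshold when every probe set was tested (limma adjusted p = 0.0724). The mean of both probe sets differed by 0.12 (adjusted p = 0.325), so the direction for Eef2k depends on the probe set.

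Eif5a encodes the hypusine-containing factor eIF5A. Its brighter probe set read 11.48, 11.41 and 11.52 in controls and 11.32, 11.26 and 11.06 with 4EGI-1. All treated samples were below all controls, with treated replicate 3 lowest, and the difference of -0.26 ± 0.08 (SE) lay just outside the threshold (limma adjusted p = 0.0505). The dimmer probe set read 9.08, 9.10 and 9.06 in controls and 8.90, 8.87 and 8.84 with 4EGI-1, a difference of -0.21 ± 0.05 (SE; limma adjusted p = 0.0482 over all 34760 probe sets). In that same fit the brighter probe set did not pass (limma adjusted p = 0.103). The kept probe set numbers of the other members with a listed start run by chromosome. In that order the dimmer Eif5a probe set falls at the gene's chromosome, and the brighter one does not. The brighter one may therefore read a related sequence, which was not tested. With the mean of both probe sets Eif5a passed, at -0.24 (adjusted p = 0.0307). It also passed when genes below the table's median (adjusted p = 0.0128) or 25th percentile (adjusted p = 0.0304) were left out, with a trended robust prior (adjusted p = 0.00256), with array weights (adjusted p = 0.0378) and without 4EGI-1 replicate 1 (adjusted p = 0.0416). These were 6 of 15 alternatives. In the other 9 Eif5a did not pass, with adjusted p-values of up to 0.144.

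**Figure D2:**
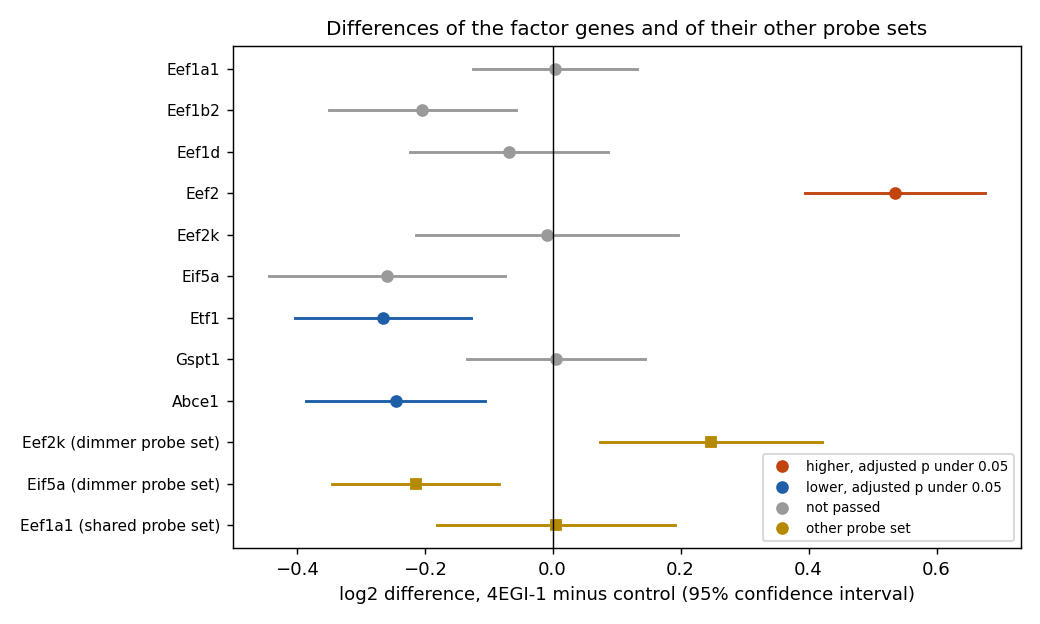
Log2 difference, 4EGI-1 minus control, with its 95% confidence interval from limma, for the kept probe set of each factor gene (circles, coloured by whether it passed) and for the other probe sets that name a member (squares). The probe sets of Eif5a lie together at -0.26 and -0.21, and those of Eef2k apart at -0.01 and 0.25.

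The release factor genes gave unequal values. Etf1, which encodes the stop codon reader eRF1, had log2 signals of 11.44, 11.36 and 11.35 in controls and 11.14, 11.12 and 11.09 with 4EGI-1. The groups were separate, and Etf1 fell by 0.27 ± 0.06 (SE; 95% confidence interval -0.40 to -0.13; limma adjusted p = 0.0136), to 0.832 times its control level. The call held in all 15 alternatives, with an adjusted p of at most 0.0496.

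Gspt1, which encodes the partner GTPase eRF3, had log2 signals of 12.32, 12.22 and 12.31 in controls and 12.32, 12.27 and 12.27 with 4EGI-1. The groups overlap, and the difference was 0.01 ± 0.06 (SE), with a 95% confidence interval of -0.13 to 0.14 (limma adjusted p = 0.965). Within arrays, Etf1 minus Gspt1 was -0.90 ± 0.05 in controls and -1.17 ± 0.02 with 4EGI-1 (SD, n = 3 each; exact two-sided permutation p = 0.1, the smallest possible). This pair was chosen after its values were seen.

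Abce1, which encodes the ATPase that splits ribosomes after termination, had log2 signals of 12.04, 11.93 and 12.00 in controls and 11.76, 11.78 and 11.71 with 4EGI-1. All treated samples lay below all controls. Abce1 fell by 0.25 ± 0.06 (SE; 95% confidence interval -0.39 to -0.10; limma adjusted p = 0.0212), to 0.844 times its control level. The call was lost without control replicate 1 (adjusted p = 0.0689), control replicate 3 (adjusted p = 0.0696), 4EGI-1 replicate 1 (adjusted p = 0.0521) or 4EGI-1 replicate 3 (adjusted p = 0.0726).

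**Figure D3:**
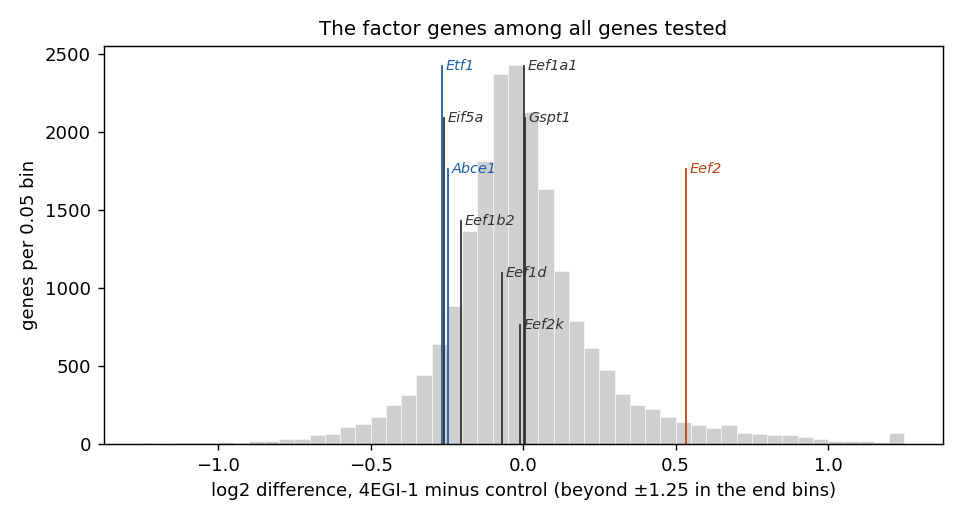
Histogram of the log2 difference (4EGI-1 minus control) of all 19937 genes in bins of 0.05, with a line for each measured factor gene, orange where it rose, blue where it fell and dark grey where it did not pass; line heights only separate the names. Eef2 lies at 0.53, to the right of the bulk of genes, and Etf1 and Abce1 lie at -0.27 and -0.25.

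The genes with patterns nearest to that of Eef2 over the 6 arrays, leaving out predicted and unnamed genes, were Mtmr4 (Pearson r = 0.9996), Pja2 (r = 0.9992) and Trim32 (r = 0.9991). These genes encode a phosphoinositide phosphatase and, for Pja2 and Trim32, ubiquitin ligases. Their differences were 0.43, 0.55 and 0.47, and the correlation is a description, since 1380 genes reached an r above 0.95 with Eef2 and all 6 arrays share the step between the groups.

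Other genes of the same pathway, written as a list of 62, gave 56 measured genes. There were 11 that rose, 13 that fell and 32 that did not pass. That is 19.6% higher and 23.2% lower, against 11.5% each over all genes, with a median difference of -0.05. The counts of the small groups below stand against the same shares of all genes. The list was written with earlier results of these data known, and no test of the list as a whole was made.

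Among the close relatives by name, 0 of 4 rose, 2 fell and 2 did not pass. Eef1e1, an auxiliary protein gene of the aminoacyl-tRNA synthetase complex, fell by 0.35 ± 0.06 (SE; limma adjusted p = 0.00523). Eif5a2, the second eIF5A gene, fell by 0.24 ± 0.07, from a log2 signal of 7.34 to 7.10 (limma adjusted p = 0.0454). That call was lost without each sample but 4EGI-1 replicate 1, at adjusted p-values of 0.0938 to 0.129. Eef1a2 and Gspt2 differed by -0.04 and 0.01.

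The genes of both enzymes that make hypusine, the modified lysine that eIF5A needs, had lower values in every treated sample than in any control. The same held for 20.8% of all genes. Dohh, which encodes the hydroxylase of the last step, fell by 0.48 ± 0.08 (SE; limma adjusted p = 0.00272), from a low log2 signal of 6.31 to 5.84. Dhps, which encodes the synthase of the initial step, differed by -0.22 and did not pass.

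Of 6 measured genes of diphthamide synthesis, the modification of eEF2 that diphtheria toxin recognises, 2 rose, 1 fell and 3 did not pass. Dph7 rose by 0.57, with means of 7.85 ± 0.04 in controls and 8.41 ± 0.10 with 4EGI-1 (SD, n = 3 each). Dph3 rose by 0.24, but its call was lost without any one of the 6 samples (adjusted p-values of 0.0513 to 0.113). Dnajc24, a J-domain protein gene also known as the fourth gene of this pathway, fell from 9.04 ± 0.08 to 8.47 ± 0.02 (SD, n = 3 each), a difference of -0.58.

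Of 8 measured genes whose products methylate or hydroxylate these factors, 0 rose, 3 fell and 5 did not pass. All 8 differences were below 0, as were 56.3% of those of all genes, and the groups of the 5 that did not pass overlap. Eef1akmt1, which encodes a lysine methyltransferase of eEF1A, had log2 signals of 9.59, 9.67 and 9.45 in controls and 8.71, 8.60 and 8.81 with 4EGI-1. The groups stood well apart, and Eef1akmt1 fell by 0.87 ± 0.08 (SE; limma adjusted p = 0.000261). Eef1akmt2, a further methyltransferase gene of eEF1A, fell by 0.40. Trmt112, which encodes an activator of several methyltransferases including that of eRF1, fell by 0.26 on its brightest probe set, and all 3 of its probe sets passed, from -0.60 to -0.26. The eRF1 methyltransferase gene N6amt1 itself differed by -0.12 and did not pass.

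Of 15 genes of ribosome rescue, recycling and quality control, 3 rose, 1 fell and 11 did not pass. The share that passed was 26.7%, near the 22.9% of all genes. Ascc3, which encodes a helicase that takes apart collided ribosomes, had log2 signals of 9.46, 9.48 and 9.57 in controls and 10.46, 10.38 and 10.46 with 4EGI-1. It rose by 0.92 ± 0.06 (SE; limma adjusted p = 7.42e-05), the largest increase in the list. Nemf and Ltn1, whose products work together on the large subunit that carries a stalled peptide, rose by 0.80 ± 0.08 and 0.66 ± 0.06. All 16 probe sets of Ltn1 passed, with differences of 0.61 to 0.89. Denr, which encodes a factor that recycles the small subunit, fell by 0.33 ± 0.06, while its partner gene Mcts1 differed by -0.23 and did not pass. Pelo and Hbs1l, which encode the rescue counterparts of the release factors, differed by -0.05 and -0.01.

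Selenocysteine insertion, which recodes a stop codon during elongation, held the largest decrease of the list. Sephs2, which encodes the selenophosphate synthetase and is itself a selenoprotein gene, had log2 signals of 10.29, 10.30 and 10.34 in controls and 9.33, 9.24 and 9.20 with 4EGI-1. It fell by 1.06 ± 0.06 (SE; limma adjusted p = 5.34e-05), to 0.481 times its control level. Sepsecs and Pstk, which encode the enzymes that build selenocysteine on its tRNA, rose by 0.48 and 0.41, and the selenocysteine elongation factor gene Eefsec and Secisbp2 differed by 0.01 and 0.04.

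Of 9 measured genes of mitochondrial elongation, termination and recycling, 3 rose, 2 fell and 4 did not pass. Gfm2, which encodes a recycling factor, rose by 0.70 ± 0.07 (SE), and the release factor genes Mtrf1 and Mtrf1l rose by 0.42 and 0.34. Mrpl58, which encodes a rescue hydrolase of the mitochondrial ribosome, fell by 0.36. Tsfm, which encodes the exchange factor of mitochondrial EF-Tu, fell by 0.24, but its call was lost without each sample but control replicate 3, at adjusted p-values of 0.0522 to 0.144.

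Of 7 measured regulators of eEF2 kinase, 1 rose, 2 fell and 4 did not pass. Mtor, which encodes the kinase that keeps eEF2K inactive through its downstream kinases, rose by 0.79 ± 0.08 (SE; limma adjusted p = 0.000292). Prkaa2, which encodes a catalytic subunit of the AMP-activated kinase, fell by 0.42 ± 0.07, and the calmodulin gene Calm3 fell by 0.36 ± 0.06. Prkaa1 and Calm2, their related genes, differed by 0.09 and -0.10 and did not pass. These are mRNA values on polysomes, and the phosphorylation of eEF2 was not measured.

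**Figure D4:**
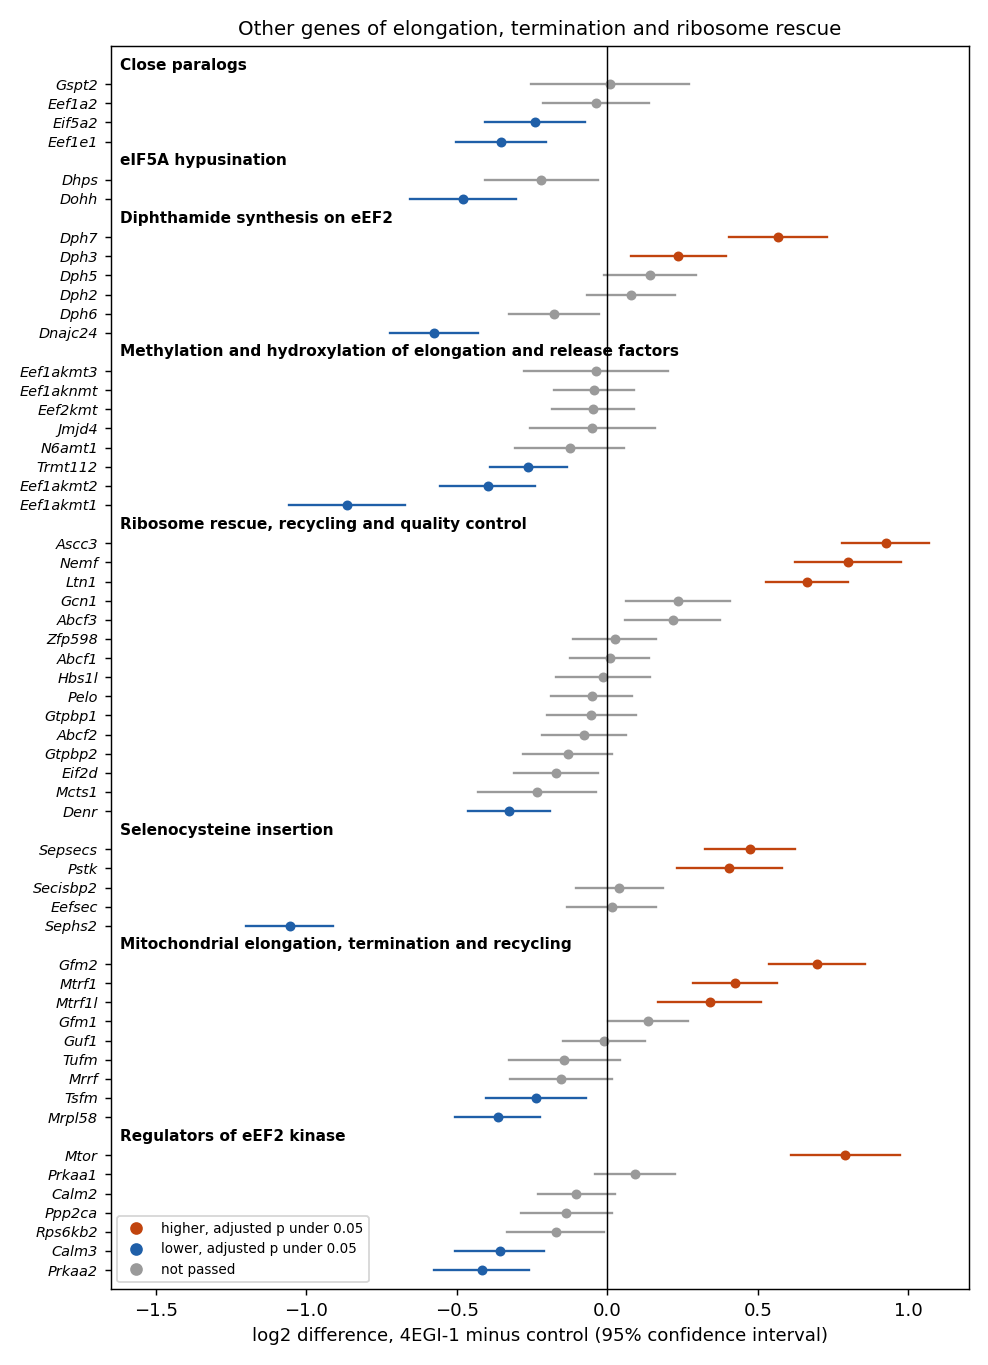
Log2 difference (4EGI-1 minus control) with its 95% confidence interval for the 56 measured genes of the pathway list, by group; orange circles rose, blue circles fell and grey circles did not pass. Ascc3 lies farthest right at 0.92 and Sephs2 farthest left at -1.06.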

How the data were processed

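The deposited table holds log2 signals of 34760 probe sets on 6 arrays, made by the authors with RMA per the submitters' processing notes, its version and settings not being stated there. Because RMA makes the arrays alike, values are relative. Per the labels' protocols, whole-transcript amplification preceded hybridisation. The platform annotation gives 21640 probe sets 1 symbol and 1321 several, and does not list the other 11799. Only those with 1 symbol named a gene. Symbols were updated by Entrez identifier (21553 matched) and the brightest probe set per symbol was kept, giving 19937 genes. Each gene's difference was tested with limma 3.58.1 (lmFit, eBayes; R 4.3.3), two-sided, with no filter; the script was tested on simulated data. The design text calls the samples biological replicates; their number limits the precision. Members and lists were chosen with earlier results of these data known. All members were named, as were up to 3 pathway genes per group and direction that passed, and others given beside them were chosen after their values were seen. Alternatives were the replicate block, 2 signal filters, every probe set, mean of probe sets, quantile normalization, median centring, a trended robust prior, array weights and leaving out each sample. Sequences are from RefSeq (GRCm38.p6), where 7 of the 10 symbols matched.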

Additional observations from a re-analysis of the deposited data

How the results depend on the processing

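The rise of Eef2 and the fall of Etf1 passed in each of the 15 alternatives. The larger change of Eef2 than of the eEF1 genes kept its direction in all 8 run (0.60 to 0.66). That says little, since the pair was chosen with the values of Eef2 known. These genes have 1 probe set each, so the mean of probe sets changed nothing, and most of the others left out 1 sample. The count of factor genes that fell was 2, and became 4 when genes below the table's median or 25th percentile were left out and with a trended robust prior, where Eef1b2 (-0.20) and Eif5a (-0.26) also passed; leaving out 1 sample gave 1 to 2. Under the filters fewer genes were tested, and the SE was also smaller. With the median filter it was 0.058 for Eef1b2 and 0.072 for Eif5a, against 0.064 and 0.080 in the main fit. Why these genes passed, there or under the prior, was not tested. Eif5a also passed with the mean of its probe sets (-0.24) and array weights (-0.28), and at -0.31 to -0.18 without single samples it passed once. Abce1 was at -0.27 to -0.22 without single samples and lost its call in 4 of 6. Differences near 0 changed sign without a call: Eef1a1 to -0.0090 under quantile normalization and -0.0038 to 0.013 without single samples, Eef2k to 0.12 with the mean of its probe sets and -0.084 to 0.055 without single samples, and Gspt1 at -0.024 to 0.023 without single samples. With the replicate number as a block Eef2 differed by 0.53 (adjusted p = 0.00370), and 1 member rose and 2 fell as before. Deviations from the group means correlated at 0.06, 0.11 and -0.02 across genes between same-numbered samples. These weak correlations show no pairing common to all genes, and whether the numbers pair the samples is not settled. Of 24 named pathway genes, 3 (Dph3, Eif5a2 and Tsfm) lost their call in at least 1 alternative, also under the block, and 0 changed sign.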
